A study of Mus musculus with 3 samples.

Results

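The major histocompatibility region of the mouse was read here as the 502 array probes that lie on chromosome 17 from 33000000 to 39000000 (mm9), out of 170305 probes on all chromosomes. Probes named for olfactory or vomeronasal receptors were left out by name, which removed 2 of the 504 probes of the window. Array comparative genomic hybridisation measures DNA, so a probe's signal follows how much matching DNA a sample holds and how well that DNA pairs with the probe. Each of the 3 arrays carried 2 DNA samples: DNA of a neurosphere line, a free-floating culture of tumour cells from a mouse tumour resistant to inhibition of the receptor CSF-1R, labelled with Cy5, and mouse liver DNA labelled with Cy3. The lines were at passages 2 to 3 in a mouse neural stem cell medium and form 1 group of 3. Line 1 and its liver carry the animal number 43674. Lines 2 and 3 carry the animal number 43289 and share 1 liver label. Genotype, strain, age and sex of the mice are not given in the labels, and no sample stands for untreated or sensitive tumours. The comparison of animals is thus 1 animal against 1, and the 3 hybridisations shared 1 slide and 1 dye orientation.

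The major histocompatibility complex, called H2 in the mouse, is among the most variable stretches of mammalian genomes. Class I molecules display peptides from inside the cell to cytotoxic T cells, class II molecules display peptides from taken-up material to helper T cells, and the class III stretch between them holds complement, cytokine and other genes that do not present peptides. Inbred mouse strains differ in their H2 haplotype, both in base sequence and, in the Q and T families of class I genes, in the number of genes. An inherited difference between animals should stand in both the line and the liver DNA of an animal, whereas a change acquired by the tumour should stand in the line alone. Both channels of an array are read from the same spots, so for a single probe an inherited difference and a spot effect cannot be told apart. Arrays 2 and 3, which share an animal number, show how often such a pattern arose between those arrays; array 1 was dimmer, so its own spot noise is not measured by them.

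The members were spaced at a median of 10009 base pairs and were 45 to 60 bases long, with a median GC content of 36.7%. A gene name stood beside 271 of them, under 141 names, of which 104 are current symbols in RefSeq (GRCm38.p6), 9 are synonyms and 28 were not matched. Coverage of the class I and class II genes themselves was thin. Of 35 protein-coding H2 genes that RefSeq orders from H2-K2 to H2-M2, 10 had a probe under their name or a synonym. The classical class I genes H2-K1, H2-D1 and H2-L, which carry the main peptide-presenting molecules, had none, so 0 of the 3 could be read by name. The array's name M73959, which is no current RefSeq symbol, stood beside 30 probes from 33905520 to 34441026. They were interleaved first with genes before class II, such as Kank3 and Daxx, and further on with named class II genes. One of those 30 lies just before the start site of H2-Ob, a class II-like chain that tempers peptide loading, as the sequence below shows. Measured signal was ample: 488 of the 502 members were well above background in all 6 readings.

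The 9 probes that differed most between the animals in both channels, 1 of them too dim to be relied on (2410017I17Rik), and those of 3 class II chain genes are printed in lower case as the array file gives them. The file does not state the strand, and no base is marked, because the arrays do not tell which base, or how many copies, differed. The first is unnamed and lies at chr17:36447166-36447225, between the array's probes for Trim39 and H2-M10.1. In RefSeq order H2-M10.2 is the 1 protein-coding gene between those genes.
unnamed probe before H2-M10.1: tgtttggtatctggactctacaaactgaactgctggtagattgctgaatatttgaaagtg
Cchcr1, chr17:35664031-35664090: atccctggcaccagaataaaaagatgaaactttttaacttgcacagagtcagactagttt
2410017I17Rik, chr17:36293928-36293987: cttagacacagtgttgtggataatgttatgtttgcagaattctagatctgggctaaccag
J00393, chr17:36273394-36273445: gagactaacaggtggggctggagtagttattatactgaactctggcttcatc
M73959, chr17:34355256-34355315: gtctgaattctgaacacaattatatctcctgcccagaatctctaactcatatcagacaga
unnamed probe before H2-M10.6, chr17:36890283-36890340: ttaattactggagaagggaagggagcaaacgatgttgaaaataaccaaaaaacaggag
unnamed probe between Zfp763 and Zfp563, chr17:33177545-33177604: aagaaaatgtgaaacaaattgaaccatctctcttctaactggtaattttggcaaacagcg
Ndufa7, chr17:33971507-33971566: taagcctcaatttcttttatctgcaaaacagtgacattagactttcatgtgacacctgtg
unnamed probe beyond Mog, chr17:37901395-37901446: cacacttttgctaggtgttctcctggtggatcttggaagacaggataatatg
H2-Ab1, chr17:34402755-34402814: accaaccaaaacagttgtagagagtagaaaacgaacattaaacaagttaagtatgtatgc
H2-Aa, chr17:34421359-34421418: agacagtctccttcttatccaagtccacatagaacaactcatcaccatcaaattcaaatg
H2-Eb2, chr17:34473505-34473564: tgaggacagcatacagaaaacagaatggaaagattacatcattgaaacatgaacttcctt
None of the 502 members shared a run of 20 bases with another probe of the array on either strand, so no member is a copy of another at that length.

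10 members shared such a run with a RefSeq window around a gene's start site (250 bases before to 50 after, GRCm38.p6, 32851 windows). 3 of them are shown because they bear on the array's names, with the shared bases in capitals.
H2-Ob window, probe named M73959, chr17:34375595-34375654: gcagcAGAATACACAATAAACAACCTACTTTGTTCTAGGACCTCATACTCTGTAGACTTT
Olfr130 window, unnamed probe, chr17:38203966-38204025: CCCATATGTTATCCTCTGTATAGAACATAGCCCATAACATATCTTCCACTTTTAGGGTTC
Olfr118 window, unnamed probe, chr17:37808897-37808956: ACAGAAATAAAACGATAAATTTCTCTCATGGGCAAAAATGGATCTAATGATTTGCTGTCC
In the H2-Ob probe 55 of 60 bases matched, and the match stopped at the edge of the window. 9 of the 10 matched over their whole length. 5 of the 10 were unnamed probes within 250 bases before the start sites of olfactory receptor genes (Olfr108, Olfr109, Olfr118, Olfr128 and Olfr130), so leaving receptors out by name kept olfactory receptor loci among the members. The other matches were to Ppt2, Lsm2, Ly6g6d and Bag6 of the class III stretch.

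In 3 of 502 members (0.598%) array 1 differed from the mean of arrays 2 and 3 by at least 1 on the log2 scale in both channels with 1 sign, against 0.131% of autosomal probes. All 3 were lower in animal 1, where the autosomal share in that direction was 0.0737%, and 0 were higher, against 0.057%. Signals are log2 values centred on the autosomal median of their array and channel, so that a difference of -1 is a signal at 50% of the other. The same rule applied to arrays 2 and 3 called 0 members, against 0.0229% of autosomal probes. At a smaller threshold of 0.58, which is log2 of 3 over 2, the count was 9 members (1.79%), 6 lower and 3 higher in animal 1, against 0.61% of autosomal probes, and again 0 between arrays 2 and 3, against 0.172%. Among 395 autosomal windows of 6 Mb, 8 had a share past 0.58 as high as that of the region, and the median window had 0.495%. With 1 animal on each side there is no test of this difference. With another background correction (normexp) 0 of the 3 calls remained, and 1 of the 3 was a probe below background in most readings, as described below.

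**Figure D1:**
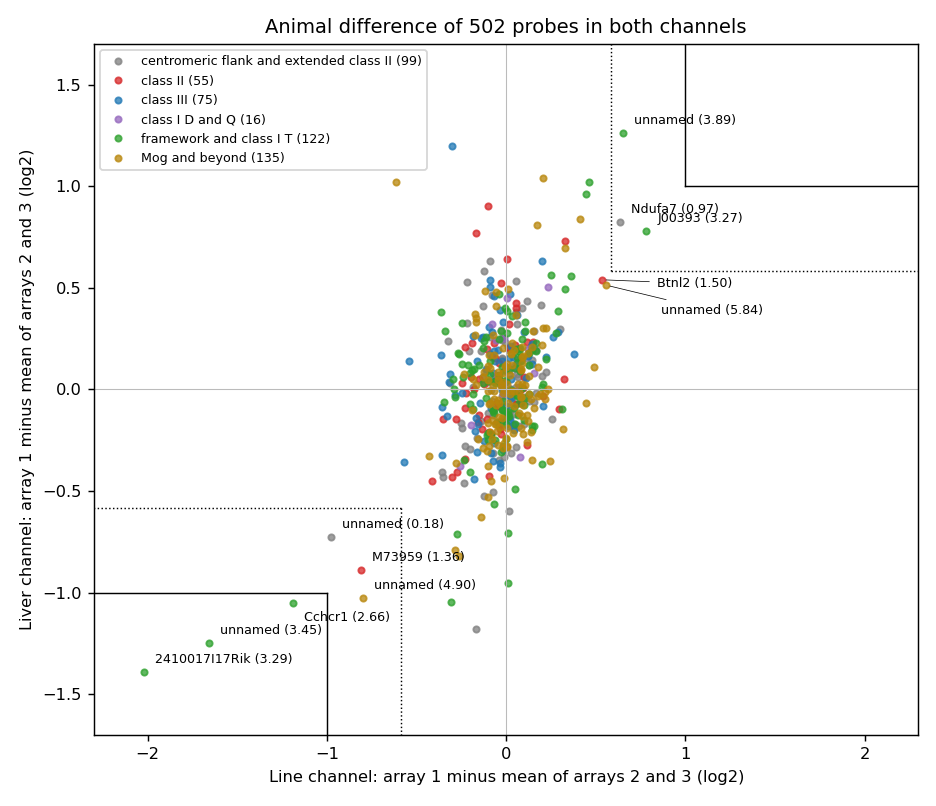
Each point is 1 of the 502 probes, with the line-channel difference of array 1 from the mean of arrays 2 and 3 (log2) on the x axis and the liver-channel difference (log2) on the y axis, coloured by part of the region; solid corners mark 1 and dotted corners 0.58, and numbers in brackets are Mb from the start of the window. The 3 probes past 1 lie in the lower left corner, and none lies in the upper right one.

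The largest difference that was fully measured was at the unnamed probe before H2-M10.1. In line DNA its signals were -1.75, -0.09 and -0.09 on arrays 1, 2 and 3, and in liver DNA -1.37, -0.11 and -0.13. Array 1 was low in both channels, and arrays 2 and 3 lay within 0.02 of each other in each. The signal of animal 1 was 3.15-fold lower in the line and 2.37-fold lower in liver.

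The probe for Cchcr1, a coiled-coil protein gene of the framework that class I genes are set in, was the second. Its line signals were -1.02, 0.33 and 0.01, and its liver signals -0.97, 0.17 and -0.01. Again array 1 stood alone below both other arrays, which themselves were 0.32 apart in line DNA. The difference was -1.19 in the line and -1.05 in liver. Neither neighbouring probe moved with it in the line, though both were lower in animal 1 in liver. That of Tcf19, at 13300 base pairs, gave 0.20 in the line and -0.37 in liver, and the next unnamed probe, at 7558 base pairs, 0.05 and -0.49.

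The third probe, 2410017I17Rik, gave signals of -4.61, -2.58 and -2.61 in line DNA and -4.42, -3.02 and -3.05 in liver DNA. Only 1 of its 6 readings, that of line 3, was well above background. No fold is given for it, since against the lowest reliable signal of array 1 the line difference shrank to 1.06-fold and both animals' liver readings were below background. Without it, 2 members were past 1.

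6 further probes were past 0.58 in both channels. 3 of them were lower in animal 1: the M73959 probe between Tap2 and the class II chain genes (-0.81 in the line, -0.89 in liver), an unnamed probe in the zinc finger gene stretch between Zfp763 and Zfp563 (-0.98 and -0.73), and an unnamed probe beyond Mog (-0.80 and -1.03). The other 3 were higher in animal 1. J00393 stood at 2.90, 2.21 and 2.03 in line DNA and 2.71, 2.01 and 1.86 in liver DNA, which is 0.78 higher in each channel. The unnamed probe before H2-M10.6 was higher by 0.65 and 1.26, and that of Ndufa7, a subunit gene of the respiratory chain, by 0.64 and 0.82. Just outside the threshold lay a probe of the butyrophilin-like gene Btnl2, 0.54 higher in each channel, and an unnamed probe near the distal end of the window, 0.56 and 0.51 higher. In all of these, arrays 2 and 3 lay on 1 side of array 1 in both channels.

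**Figure D2:**
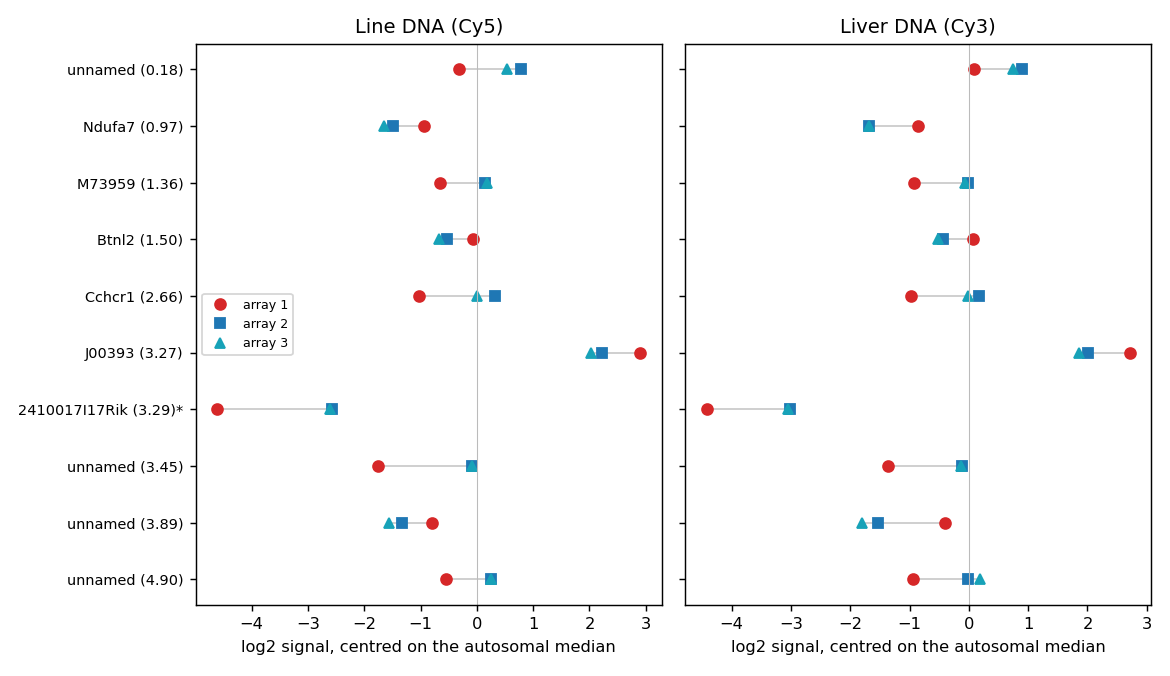
Signals (log2, centred on the autosomal median of the array and channel; x axis) of the 10 probes with the largest difference, 1 row a probe, in line DNA (left) and liver DNA (right), with 1 marker an array; numbers in brackets are Mb from the start of the window and the asterisk marks the probe with readings not well above background. Array 1 lies outside arrays 2 and 3 in every row of both panels.

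At 0.58 these differences stood at single probes: no 2 adjacent members passed it with the same sign. For the 11 members past 0.5, 22 neighbouring positions were read, at 5735 to 29935 base pairs. 2 of them passed 0.3 in both channels with 1 sign, where 5.18% of members and 3.09% of autosomal probes did. Both were higher in animal 1 beside a probe that was lower. The probe between J00393 and 2410017I17Rik was counted for each. 1 pair of adjacent members passed 0.3 with the same sign, and 0 pairs passed 0.4. All 161460 autosomal probes held 98 and 34 such runs. Such runs were thus rare everywhere, and 0 among 502 members does not set the region apart. No gene with at least 3 probes moved as a whole: taken as the smaller of the 2 channels, the gene differences ran from -0.08 for M73959 to 0.07 for Adamts10. The interquartile range of the difference was 0.18 over the members against 0.19 over other autosomal probes in the line, and 0.34 against 0.33 in liver. The SDs, which the few large differences weigh on more, were 0.22 against 0.18 and 0.32 against 0.29. The median difference was -0.019 in the line and 0.028 in liver, against 0.0015 and 0.0082 over other autosomal probes. Differences of the line and liver channels correlated at r = 0.46 over the 502 members and 0.34 over the others. Between arrays 2 and 3 the values were 0.61 and 0.58, where the points likewise share spots.

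**Figure D3:**
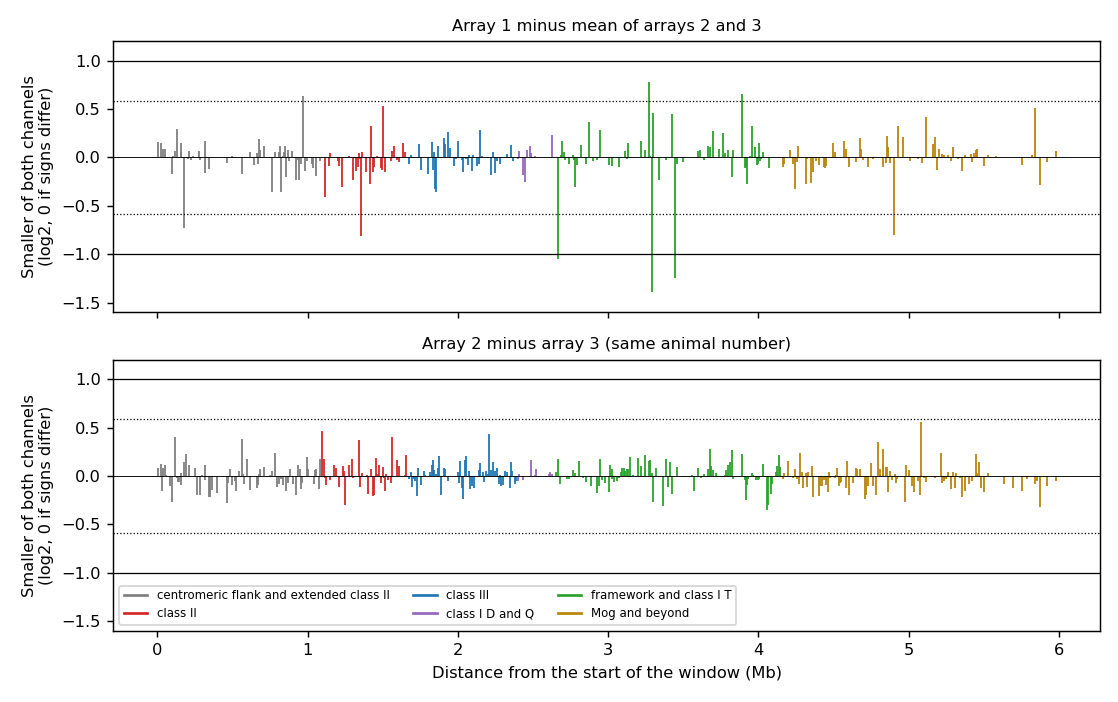
For each of the 502 probes, the smaller of the line and liver differences (log2; 0 where the signs differ) is drawn against the distance from the start of the window (Mb), for array 1 against arrays 2 and 3 (top) and array 2 against array 3 (bottom), coloured by part, with solid lines at 1 and dotted lines at 0.58. In the top panel 9 single probes pass 0.58, and in the bottom panel the largest value is 0.56.

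3 of those 9 probes lay in 1 bin of 250 kb of the framework and class I T stretch, from 36250000 to 36500000. T genes encode nonclassical class I molecules, some of which are known as ligands of gut and innate-like lymphocytes. The bin is called the class I T bin after that stretch only. None of its probes is named for a T gene, and its H2 name, H2-M10.1, is of the M family. Counted at 0.4, a threshold and bin chosen after the values were seen and so given no test, 5 of its 16 probes differed (31.2%), against 2.99% of the region and 1.57% of autosomal probes. Of 7189 autosomal bins of 250 kb with at least 10 probes, 1 reached that share, which was this bin. Other thresholds did not leave it alone. At 0.3 the count was again 5 of 16, and 3 bins reached that share. At 0.5 and at 0.58 it was 3 of 16, and 6 bins did. At 1 it was 2 of 16, and 4 bins did. Since the bin was picked from these values, its rank does not measure how unusual it is. All these counts include the dim 2410017I17Rik, and the shares and ranks of the bin without it were not computed.

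In genomic order, J00393 was higher in animal 1, 2410017I17Rik was the dim probe described above, and Gm8909, an H2 class I-like gene in RefSeq, followed with 0.46 in the line and 1.02 in liver. The signals of Gm8909 were -0.05, -0.65 and -0.38 in line DNA and 0.43, -0.75 and -0.43 in liver DNA. An unnamed probe after Trim39 gave 0.45 and 0.96, and the probe before H2-M10.1 was the low one. Setting the dim probe aside, 3 of these probes were higher in animal 1 and 1 was lower, with probes that passed no threshold between them. RefSeq places H2-T3, Rpp21, Trim39 and H2-M10.2 between Gm8909 and H2-M10.1. The probe of the T gene H2-Bl, which lies before this bin, gave 0.17 in the line and 0.23 in liver.

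**Figure D4:**
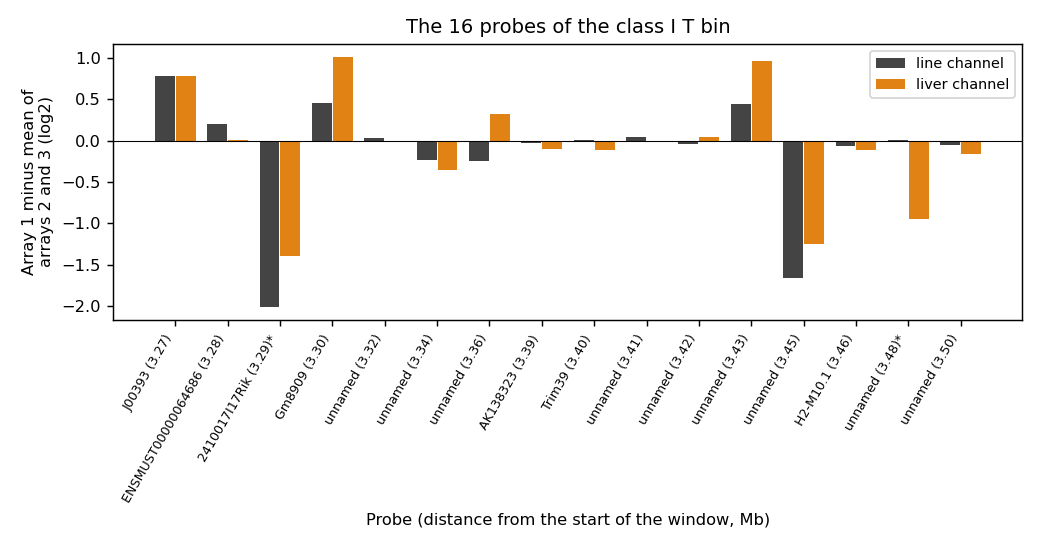
Differences of array 1 from the mean of arrays 2 and 3 (log2) in the line (dark) and liver (orange) channels for the 16 probes of the class I T bin, in order, with Mb from the start of the window in brackets and an asterisk where a reading was not well above background. 5 probes pass 0.4 in both channels, 3 upward and 2 downward, and 11 do not.

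The 5 class II probes did not pass the threshold of 0.58 in both channels. For H2-Aa, the alpha chain of the I-A molecule, line signals were 0.24, -0.05 and -0.12 and liver signals 0.29, -0.39 and -0.49. Array 1 was above the others in both channels, by 0.33 in the line and 0.73 in liver. For H2-Ab1, the beta chain, line signals were -0.79, -0.80 and -0.45 and liver signals -0.37, -1.22 and -1.04, so the higher level of animal 1 stood in liver (0.77) and not in the line (-0.17). H2-Eb2 gave 0.21 and -0.03. H2-DMa and H2-DMb1, which encode the DM molecule that loads peptides, gave 0.02 and 0.06 in the line and 0.32 and -0.07 in liver. The M73959 probes start before class II and run into it. Of these 30, 15 were lower in animal 1 in both channels and 3 were higher, against 28.1% and 27.1% of all members.

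Of the nonclassical class I probes, H2-Gs10, a synonym of H2-Q4 in RefSeq, gave -0.06 and 0.07, and the 4 M probes (H2-M10.1, H2-M11, H2-M9 and H2-M10.6) lay between -0.20 and 0.12 in both channels. Of the 4 antigen processing genes with a probe, none passed 0.58: Tapbp, which tethers class I molecules to the peptide transporter, gave -0.24 and -0.19, the immunoproteasome subunits Psmb9 and Psmb8 -0.14 and -0.20 and -0.23 and -0.09, and the 2 probes of the transporter gene Tap2 0.32 and 0.05 and -0.22 and -0.02. Over the 15 probes of 7 complement genes and their neighbours the medians were -0.06 in the line and -0.04 in liver, with 0 past 0.58. C4b and C4a, complement genes whose near-identical copies can share signal, gave 0.04 and 0.03 in the line and -0.20 and -0.04 in liver. In the list of framework genes, 1 of 31 probes passed 0.58, that of Cchcr1.

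In the line channel alone, limma called 14 of 502 members (2.79%) between line 1 and lines 2 and 3, against 1.63% of all probes. 5 were higher and 9 lower in line 1, against 0.806% and 0.82%. This fit sets 1 line against 2 sister lines of 1 mouse, so it holds no spread between animals and is no test of the animal difference. The 14 included all 9 probes past 0.58 in both channels, the dim 2410017I17Rik among them, Btnl2 and the distal unnamed probe. These had been picked for large differences in the same line values, so their inclusion is no separate evidence. Tnxb, an extracellular matrix gene beside the complement genes, stood at -0.57 in the line and -0.36 in liver. Skiv2l, an RNA helicase gene, stood at -0.54 in the line and 0.14 in liver, and an unnamed probe beyond Mog at -0.62 and 1.02. 12 of the 14 had the same sign in liver, and over all probes called 92.0% did. Array 1 was the dimmest in both channels, with median raw signals of 162, 304 and 414 in liver and 413, 549 and 708 in line DNA, and the part of this in the differences was not tested.

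Against liver, no line showed a shift of the whole region near the size of a copy number change. The mean log2 ratio of line over liver over the 502 members came to -0.038 for line 1 (95% interval -0.074 to -0.0015), 0.024 for line 2 (-0.012 to 0.060) and 0.015 for line 3 (-0.021 to 0.050). Averaged over lines it was 0.00019 ± 0.033 (SD, n = 3). For scale, a gain from 2 to 3 copies in all cells of a line would stand at 0.58 and the loss of 1 of 2 copies at -1. Neighbouring probes were averaged in blocks of 10 for the intervals, except in the short class I D and Q stretch, where single probes were used. The intervals cover probe error within an array only. An exact sign flip test over the 3 lines (2-sided) gave p = 1, where 0.25 is the smallest that 3 lines allow.

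By part, means of line 1 were below 0 and those of lines 2 and 3 above 0 in each stretch up to Mog. In class II the 3 lines gave -0.025, 0.10 and 0.069, and in class III -0.037, 0.13 and 0.065. In the stretch from the myelin glycoprotein gene Mog onward, all lines were lower than liver: -0.089 (-0.14 to -0.038), -0.10 (-0.14 to -0.057) and -0.075 (-0.12 to -0.030). The mean was -0.088 ± 0.013 (SD, n = 3), and the exact sign flip test gave p = 0.25, or 0.7 adjusted over 7 comparisons. This stretch held 135 probes, of which 7 were named, and the 5 probes before olfactory receptor start sites named above. Autosomal probes outside the region that lay among as few named probes (under 10% within 500 kb on each side, 5216 probes) gave -0.079, -0.11 and -0.042. Those named for olfactory and vomeronasal receptors (285 probes) gave -0.099, -0.12 and -0.072. The distal stretch thus stood where other name-poor and receptor stretches of the genome stood.

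**Figure D5:**
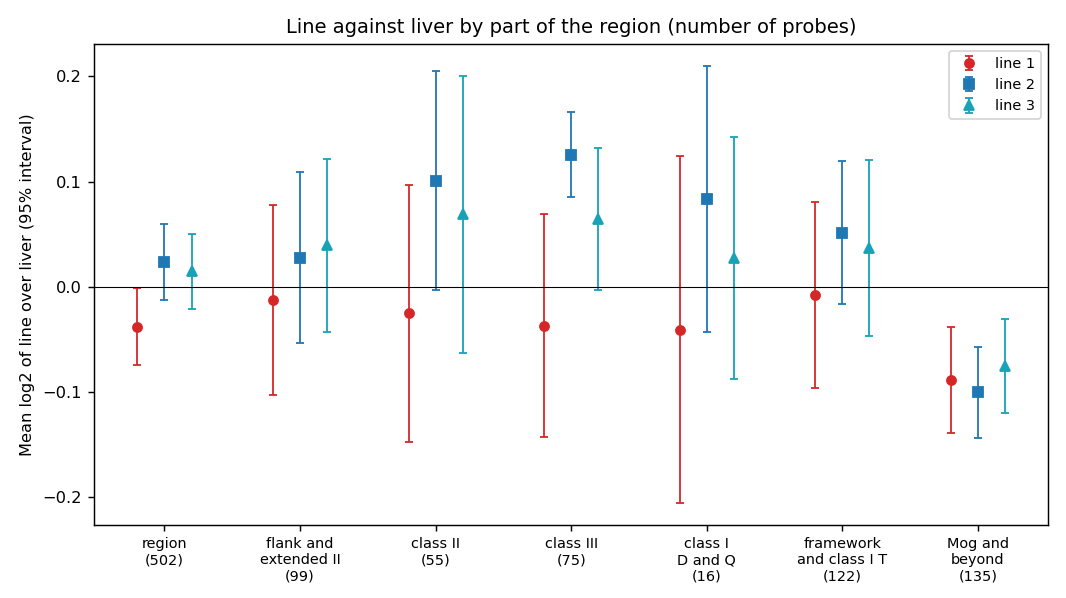
Mean log2 ratio of line over liver (y axis) with 95% intervals from probe error for the region and its 6 parts (x axis, number of probes in brackets), 1 marker a line. Line 1 lies below lines 2 and 3 in each part up to class I T, and all 3 lines lie below 0 beyond Mog.

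Per probe, limma called 163 of 502 members (32.5%) between line and liver, 81 higher and 82 lower, against 33.5% of all probes (16.1% higher, 17.4% lower), so the region's share was near that of the genome. These single-probe means ran from -0.75 to 0.74. Line DNA was in Cy5 and liver DNA in Cy3 on all 3 arrays. A dye effect of a probe and a difference of line from liver DNA therefore cannot be told apart in these calls. Of the 11 probes in the extended class II list, which holds genes such as Daxx and Brd2, 6 were higher in the lines and 0 lower, with list means of 0.098, 0.27 and 0.27. Brd2, a bromodomain gene inside class II, gave 0.33, 0.71 and 0.83, and Vps52, a vesicle tethering gene, 0.87, 0.49 and 0.49. Both were higher in all 3 lines and had the highest means of the list. Rxrb, Col11a2 and Ring1 of the same list had means below 0, at -0.20, -0.093 and -0.048. Of the 5 antigen processing probes 3 were higher and 1 lower, and the 2 of Tap2 went opposite ways (0.34 and -0.57). H2-DMb1 was higher in the lines (0.43, SD 0.07, limma adjusted p = 0.010), while H2-Gs10, H2-M9 and Mog were lower at -0.32, -0.31 and -0.33. For H2-Ab1 the ratios of the 3 arrays differed from each other, at -0.42, 0.43 and 0.61, and so did those of H2-Aa, at -0.04, 0.35 and 0.38. In each, the ratio of array 1 stood below those of arrays 2 and 3. Animal 1 was higher in liver at both, by 0.77 for H2-Ab1 and 0.73 for H2-Aa. In line DNA its differences were -0.17 and 0.33, so line 1 was not the lower one at H2-Aa.

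Of the 19 genes with at least 3 probes, 10 passed limma, against 24.2% of genes on all chromosomes. 6 were higher, against 14.2%: Rab11b, a vesicle transport gene, at 0.29 (adjusted p = 0.0050), LOC547349, in the class I D and Q stretch, at 0.19, the complement gene C2 at 0.19, AF115851 at 0.17, the protease gene Adamts10 at 0.14 and M73959 at 0.14. 4 were lower, against 9.99%: Trim26, a ubiquitin ligase gene, at -0.31 (adjusted p = 0.0054), March2 at -0.22, the myosin gene Myo1f at -0.19 and AB016772 at -0.19. Like M73959, the names AF115851 (35927757 to 36199759) and AB016772 (34453659 to 34695160) stood beside probes spread among those of other genes. The values of these 3 names are thus means over a stretch. The 3 lines of Rab11b gave 0.29, 0.28 and 0.30, and those of Trim26 -0.36, -0.24 and -0.31. All 10 were smaller in size than 0.58, and the limit of the single dye orientation holds for them too. With lines 2 and 3 averaged as 1 animal, 2 of the 19 genes passed, without line 2 it was 4, and without line 3 it was 3. The share over all genes fell with them, to 6.88%, 10.9% and 12.9%.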

How the data were processed

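Per the file headers, the deposited intensity of each spot had its background subtracted and its dyes normalised by Feature Extraction 10.7.3.1, with coordinates of mm9. The deposited value table holds log10 ratios that the authors processed further. Its columns correlated at 0.867, 0.844 and 0.884 with the log10 ratio in the scanner files, and its medians were 0.000435, -0.00146 and -0.00271. Its centring is not stated in the sources used here. Each array held 180880 spots, of which 6575 were controls. Outlier spots (160 to 179 an array) were left out, spots of 1 probe were averaged, and log2 signals were centred on the autosomal median (161460 probes). Single probes, and gene means over 3 or more probes, were tested with limma 3.58.1 in R 4.3.3 (lmFit, eBayes, 2-sided, Benjamini-Hochberg, adjusted p 0.05), checked on simulated data. Other steps used Python 3.11.15 and pandas 2.3.3. Members and gene lists were chosen with earlier results of these data known. Named were all class I, class II and antigen processing genes with a probe, and up to 10 probes or genes with the largest animal difference or limma change. Parts were bounded by genes. H2-K1, H2-K2 and Pou5f1 had no probe of their name, so neighbours in RefSeq order stood in, and Bat1a was read as Ddx39b. Nothing in the labels says that lines 2 and 3 are separate tumours, so the p-values cover the spread of these 3 cultures alone, whose number limits the precision.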

Additional observations from a re-analysis of the deposited data

Results flagged for a closer look

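Line 1 stood below liver on average and lines 2 and 3 above it, over the region and over 5 of its 6 parts. Means of this size were not particular to the region. Of 395 autosomal windows of 6 Mb, 78 had a line 1 mean as low as the region's, and 140 had a line 2 mean as high. The difference of line 1 from the mean of lines 2 and 3 (log2 ratio) was -0.057 over the region, -0.0466 in the centromeric flank and extended class II stretch, -0.11 in class II, -0.132 in class III, -0.0959 in the class I D and Q stretch and -0.0521 in the framework and class I T stretch. Each ratio has its own liver reading, so both channels enter these differences. Over the region, array 1 differed on average by -0.028 in the line and 0.023 in liver. In class III the values were -0.061 and 0.064, and in the framework and class I T stretch -0.038 and 0.0077. In the class I D and Q stretch they were 0.0044 and 0.094, so there the difference stood in liver. These differences were not tested, since the 2 animals have 1 line and 2 sister lines.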

How the results depend on the processing

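No paired analysis was possible because the 3 lines make up 1 group, and each ratio of line over liver already pairs the 2 DNA samples of an array. The count of 3 members past 1 in both channels became 9 at a threshold of 0.58 and 0 at 1.5. With normexp background correction it was 0, since the liver differences of Cchcr1 and of the probe before H2-M10.1 then came to -0.91 and -0.93, and 2410017I17Rik turned to 0.098 in the line and 0.54 in liver. Leaving out array 2 or 3 gave 2 to 3. Without the 2 probes of the class I T bin, an alternative chosen after seeing the data, it was 1. The median line difference turned from -0.019 to 0.0065 with normexp, which also moved the autosomal median to 0.023. Members past limma against liver fell from 163 to 107 in the value table and 108 with lines 2 and 3 averaged, and ranged from 89 to 237 with 1 line left out. The share of all probes moved with them, from 33.5% to 20.6%, 21.8%, and 17.7% to 46.9%. Normexp split them into 97 higher and 69 lower, and over all probes called it moved the share that was higher from 48.0% to 53.5%. Genes past limma fell from 10 to 2 with lines 2 and 3 averaged, ranged from 3 to 12 with 1 line left out, and were 34 of 141 with at least 1 probe and 6 of 11 with at least 5. The mean ratio of line 2 was -0.0059 in the value table. In 51 of 63 alternatives the value stayed within the limits set for it, though the 2 small values named above changed sign there. Spacing of 10009 base pairs and single probes for most genes limit what could be seen.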
